A study of Mus musculus with 8 samples.

Results

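Inflammatory and effector chemokine receptors were examined in Tregs (regulatory T cells), a CD4+ lineage that holds immune responses in check. The 8 receptors were chosen by name as Ccr2, Ccr4, Ccr6, Ccr8, Cxcr3, Cxcr5, Cxcr6 and Cx3cr1, and each was found with 1 probe set of a single gene symbol, giving 8 of the 19937 genes tested. RNA came from CD4+ TCRβ+ CD25+ cells, isolated with magnetic beads and then by flow cytometry from peripheral lymph nodes and spleen, and each sample supplied 100 ng of total RNA to 1 Affymetrix array. The IIKO group held 4 samples from IIKO-CD3KO chimeras, which were CD3ε-/- mice given IIKO marrow. The WT group held 4 samples from WT-CD3KO chimeras, which were CD3ε-/- mice given WT marrow. In both groups the recipients were lethally irradiated, the cells were taken 28 days after the marrow transfer, and the mice were C57BL/6, 6 to 8 weeks old by the labels. By the labels, peripheral Tregs of IIKO chimeras have no MHC class II to engage with their TCR. They do not say how many mice a sample pools, which class II gene the donors lack, or which host cells survive irradiation. CD3ε is a T cell receptor (TCR) subunit that T cells need to develop, so T cells of the chimeras come from the donor marrow. The sort used CD25 and not the Treg factor Foxp3, so other activated CD4+ cells could pass the gate.

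Chemokine receptors are membrane proteins coupled to inhibitory G proteins, and they steer cells along gradients of secreted chemokines. Ccr2 and Cx3cr1 are best known from monocytes and draw cells into inflamed tissue, while Cxcr3 and Cxcr6 belong to the type 1 helper program. Ccr4 and Ccr8 are typical of Tregs and type 2 helper cells in skin and other barrier tissue, Ccr6 of the type 17 program and mucosa, and Cxcr5 of cells that enter B cell follicles. Tregs acquire these receptors as they turn from resting into effector cells.

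The stretches before the transcript starts of Ccr2, Cxcr6 and Ccr6 are shown. Ccr2 had the largest difference among the 8 receptors, Cxcr6 lies in the same run of receptor genes on chromosome 9 and was high in the same IIKO arrays, and Ccr6 lay lowest relative to WT. Each holds the 250 bases upstream of a RefSeq start (GRCm38.p6, 5′ to 3′, plus strand of the genome), and capitals mark matches to 8 short motifs searched on both strands. These are chr9:124101933-124102182 for Ccr2, chr9:123806227-123806476 for Cxcr6 and chr17:8235793-8236042 for Ccr6, and for Ccr2 another annotated start lies just before the window. A second Ccr6 start, with its window at chr17:8242276-8242525, had 1 GATA match and is not shown.
Ccr2: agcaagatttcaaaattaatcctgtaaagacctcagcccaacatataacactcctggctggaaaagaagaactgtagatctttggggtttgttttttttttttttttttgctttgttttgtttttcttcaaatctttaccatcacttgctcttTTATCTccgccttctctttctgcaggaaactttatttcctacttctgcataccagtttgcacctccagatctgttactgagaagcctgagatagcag
Cxcr6: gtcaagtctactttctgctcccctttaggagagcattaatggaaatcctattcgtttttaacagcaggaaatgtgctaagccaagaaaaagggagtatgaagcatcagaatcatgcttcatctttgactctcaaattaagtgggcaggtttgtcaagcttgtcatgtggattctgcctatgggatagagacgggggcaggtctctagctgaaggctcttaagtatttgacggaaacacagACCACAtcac
Ccr6: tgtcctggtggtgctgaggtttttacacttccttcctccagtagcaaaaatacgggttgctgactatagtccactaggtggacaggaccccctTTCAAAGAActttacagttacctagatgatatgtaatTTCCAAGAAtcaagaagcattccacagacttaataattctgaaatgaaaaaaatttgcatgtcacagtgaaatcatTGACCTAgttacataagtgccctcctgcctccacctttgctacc

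The motifs were a GATA element (AGATAA, in 9.99% of 32851 RefSeq windows of this length), a RUNX element (TGTGGT, 14%), a STAT element (TTCNNNGAA, 7.02%) and an element of ROR factors (TAGGTCA, 2.23%). The others were T-box (AGGTGT, 11.8%), AP-1 (TGANTCA, 6.75%), E-box (CACGTG, 6.02%) and FOXO (TGTTTAC, 3.17%) elements. In the Ccr2 window the capitals are 1 GATA match on the reverse strand, and in the Cxcr6 window 1 RUNX match on the reverse strand. In the Ccr6 window they are 2 STAT matches and 1 ROR match, the ROR match on the reverse strand from base 44 to base 38 before the start. No 2 of these matches overlapped. The table of starts held 7 of the 8 receptors, all but Cxcr5. A match is a description of letters and was not tested for binding.

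None of the 8 receptors passed the test between IIKO and WT chimera Tregs, against 0.286% of all genes tested (57 of 19937). The test was limma, with p-values adjusted by Benjamini-Hochberg across all genes tested and called under 0.05. At an unadjusted limma p under 0.05 there were 2 of the 8, Ccr2 above and Ccr6 below WT, against 17.3% of all genes (5.27% above and 12% below WT). In 1 of the 8, Ccr2, the arrays of the groups did not overlap, against 10.5% of all genes and 2.83% with IIKO above. The median difference of the 8 was 0.02 (log2, IIKO minus WT), from -0.31 for Ccr6 to 0.87 for Ccr2, and the median of all genes was -0.04. The sign of the median of the 8 turned without IIKO array 2 (-0.065), WT array 4 (-0.027) or WT array 2 (-0.0071), and after a further quantile normalization (-0.0065). In bulk RNA, fewer cells with a transcript and less of it per cell cannot be told apart.

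**Figure D1:**
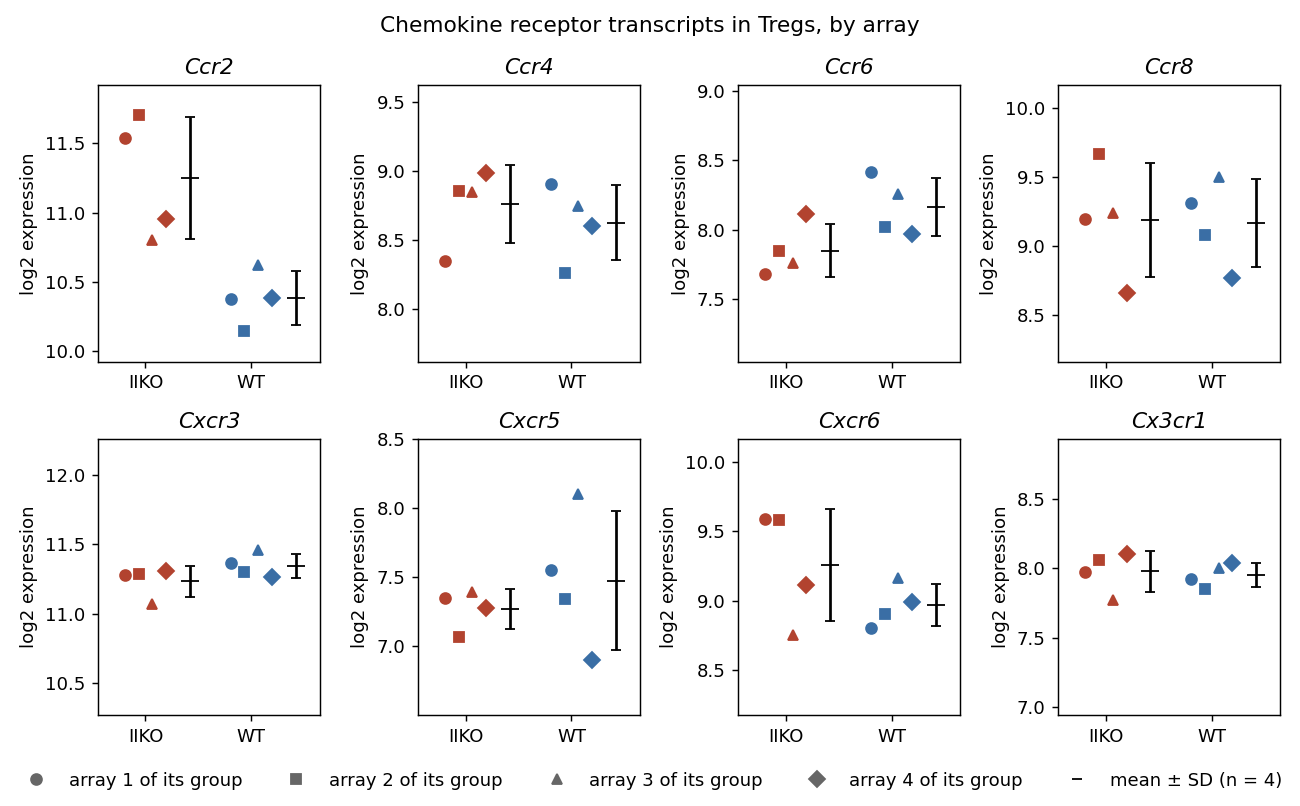
Log2 expression of each receptor (vertical axis, each panel spanning 2 log2 units) in the 4 IIKO arrays (red, left) and the 4 WT arrays (blue, right), with the mean and SD of each group. The groups are apart for Ccr2, with IIKO arrays at 10.80 or above and WT arrays at 10.62 or below, and overlap for the other receptors.

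Ccr2, the receptor for Ccl2 and related monocyte chemoattractants, was at 11.54, 11.70, 10.80 and 10.96 in IIKO arrays 1 to 4, against 10.38, 10.14, 10.62 and 10.38 in WT arrays 1 to 4 (log2 level). Every IIKO array stood above every WT array, with a gap of 0.18 between the nearest, and IIKO arrays 1 and 2 stood well above IIKO arrays 3 and 4. The means were 11.25 ± 0.44 in IIKO and 10.38 ± 0.20 in WT (SD, n = 4 arrays each). The difference was 0.87 (log2, 95% confidence interval 0.45 to 1.29), a factor of 1.83, and did not pass (limma adjusted p = 0.116). It lay between 0.72 without IIKO array 2 and 1.02 without IIKO array 3.

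Cx3cr1, the receptor for the membrane-bound chemokine fractalkine, was at 7.97, 8.06, 7.77 and 8.10 in IIKO arrays and at 7.92, 7.85, 8.01 and 8.04 in WT arrays. The WT range lay wholly within the IIKO range. The means were 7.98 ± 0.15 in IIKO and 7.95 ± 0.08 in WT (SD, n = 4 arrays each). The difference of 0.03 had an interval of -0.15 to 0.20 (limma adjusted p = 0.889), and its sign turned when single arrays were left out. That interval ends below the 0.87 measured for Ccr2, as a difference in array signal. The Ccr2 value was the largest of the 8, with an interval of its own from 0.45 to 1.29. Cx3cr1 and Ccr2 were not tested against each other. How far background signal narrows the differences of this probe set was not examined.

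Cxcr3, the receptor for the interferon-induced chemokines Cxcl9, Cxcl10 and Cxcl11, was at 11.28, 11.28, 11.07 and 11.31 in IIKO arrays and at 11.36, 11.30, 11.46 and 11.26 in WT arrays. IIKO array 3 was below the others, and the rest lay close together. The means were 11.23 ± 0.11 in IIKO and 11.35 ± 0.09 in WT (SD, n = 4 arrays each), the smallest spread over all 8 arrays among the receptors. The difference was -0.11 (interval -0.27 to 0.05, limma adjusted p = 0.426), and -0.056 without IIKO array 3. Tbx21, which encodes the T-bet factor that induces Cxcr3, differed by -0.04 ± 0.07 (SE; interval -0.19 to 0.11), and became 0.012 when arrays were centred on their medians.

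Cxcr6, the receptor for Cxcl16, was at 9.59, 9.58, 8.75 and 9.11 in IIKO arrays and at 8.81, 8.90, 9.16 and 8.99 in WT arrays. IIKO arrays 1 and 2 were above all WT arrays, whereas IIKO array 3 was below all of them. The means were 9.26 ± 0.41 in IIKO and 8.97 ± 0.15 in WT (SD, n = 4 arrays each). The difference was 0.29 (interval -0.09 to 0.68, limma adjusted p = 0.395), and it was 0.18 or 0.19 when IIKO array 1 or 2 was left out and 0.46 when IIKO array 3 was. The SD in IIKO was 2.67 times that in WT for Cxcr6 and 2.24 times for Ccr2, given as descriptions without a test.

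Ccr4, the receptor for Ccl17 and Ccl22, was at 8.35, 8.86, 8.85 and 8.98 in IIKO arrays and at 8.90, 8.26, 8.75 and 8.60 in WT arrays. The groups overlapped over nearly their whole ranges, with 1 low array in each. The means were 8.76 ± 0.28 in IIKO and 8.63 ± 0.27 in WT (SD, n = 4 arrays each), a difference of 0.13 (interval -0.22 to 0.48, limma adjusted p = 0.681). Leaving out WT array 2 gave 0.0094, and leaving out IIKO array 1 gave 0.27. Ccr8, the receptor for Ccl1, was at 9.20, 9.67, 9.24 and 8.66 in IIKO arrays and at 9.31, 9.08, 9.50 and 8.77 in WT arrays. Array 4 was the lowest in each group, though the array numbers are not known to pair samples. The means of Ccr8 were 9.19 ± 0.41 in IIKO and 9.17 ± 0.32 in WT (SD, n = 4 arrays each). The difference, 0.02 (interval -0.43 to 0.48, limma adjusted p = 0.96), became -0.021 once the arrays were quantile normalized again. Gata3, a transcription factor of type 2 helper cells and Tregs that is tied to Ccr4 and Ccr8, differed by 0.09 ± 0.11 (SE; interval -0.14 to 0.33).

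Ccr6, the receptor for Ccl20, was at 7.68, 7.84, 7.76 and 8.11 in IIKO arrays and at 8.41, 8.02, 8.25 and 7.97 in WT arrays. IIKO arrays 1, 2 and 3 were below all WT arrays, and IIKO array 4 was above WT arrays 2 and 4. The means were 7.85 ± 0.19 in IIKO and 8.16 ± 0.21 in WT (SD, n = 4 arrays each). The difference was -0.31 (interval -0.58 to -0.05), a factor of 1.24, and did not pass (limma adjusted p = 0.228). It ran from -0.40 to -0.23 under the 15 alternatives, some of which leave the difference unchanged, with limma adjusted p from 0.131 to 0.424. Rora, which encodes a ROR factor of the type 17 program, differed by 0.13 ± 0.09 (SE; interval -0.07 to 0.33), and Maf by 0.12 ± 0.08. Ccr6 lies on chromosome 17, which held 936 of the 19937 genes tested and 18 of the 57 changed genes. Among the 20 tested genes on either side of Ccr6, 1 of 40 had changed, against 0.286% of all genes. It was 1700010I14Rik, named after its value was seen. The same count was 1 of 20 for Ccr2 and 1 of 25 for Cxcr6, Ccr9 in both, and 0 of 40 for each of the other receptors.

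Cxcr5, the receptor for the follicle chemokine Cxcl13, was at 7.35, 7.07, 7.40 and 7.28 in IIKO arrays and at 7.55, 7.35, 8.10 and 6.90 in WT arrays. The IIKO arrays lay within the WT range, which ran from WT array 4 to WT array 3. The means were 7.27 ± 0.15 in IIKO and 7.48 ± 0.50 in WT (SD, n = 4 arrays each), and Cxcr5 had the widest WT range of the 8 receptors, 1.20 log2. The difference was -0.21 (interval -0.66 to 0.25, limma adjusted p = 0.619), and 0.0042 without WT array 3. Bcl6, which encodes the factor that induces Cxcr5 in follicular cells, was at 7.12 ± 0.16 in IIKO and 7.34 ± 0.10 in WT (SD, n = 4 arrays each; limma adjusted p = 0.236).

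**Figure D2:**
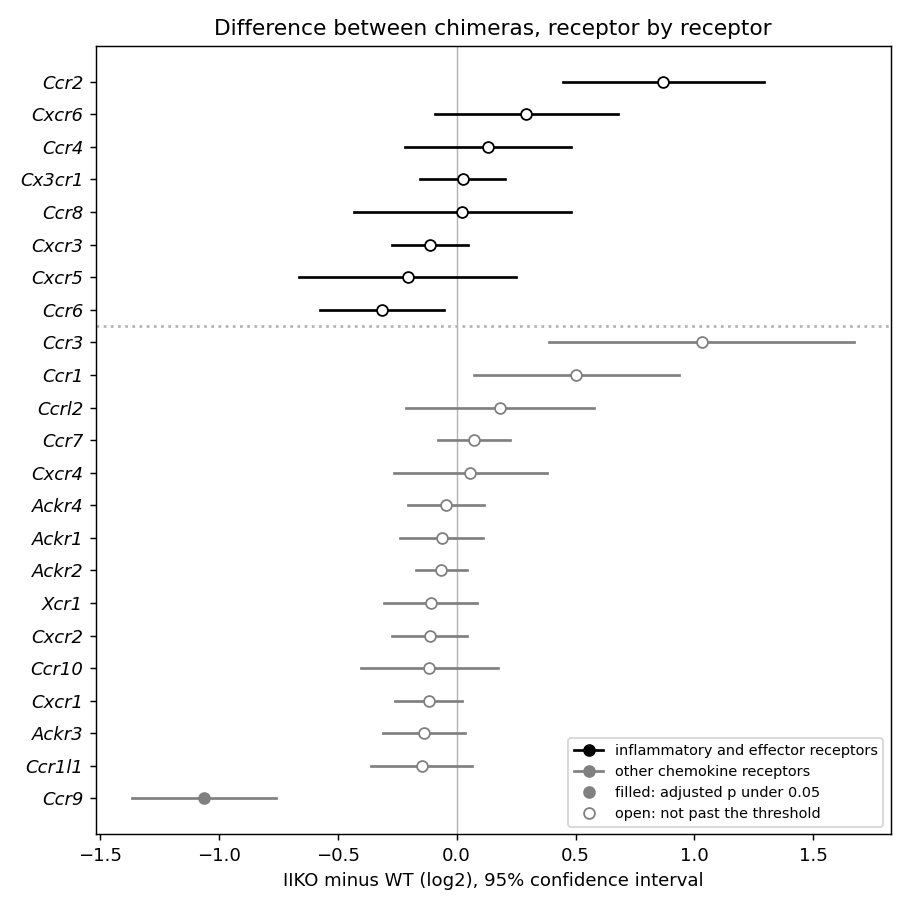
Difference between IIKO and WT arrays in log2 units (horizontal axis, points) with limma's 95% confidence interval (bars) for the 8 inflammatory and effector receptors (black) and 15 other chemokine receptors (grey). The interval of Ccr2 runs from 0.45 to 1.29, those of 6 of the 8 cross 0, and the filled point of Ccr9 is the 1 past the adjusted threshold.

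Of the 8 receptors, 6 lie on chromosome 9, and Ccr2 and Cxcr6 are within a run of 8 tested genes at its end. In gene order the run goes Ccr9, Fyco1, Cxcr6, Xcr1, Ccr1, Ccr1l1, Ccr3 and Ccr2, in which 7 genes are chemokine receptors and Fyco1 is not. Ccr3, the eotaxin receptor of eosinophils and some type 2 helper cells, was at 8.37, 8.81, 7.74 and 7.14 in IIKO arrays and at 6.97, 7.17, 6.81 and 6.99 in WT arrays. IIKO arrays 1, 2 and 3 were above all WT arrays, and IIKO array 4 was below WT array 2. Its difference was 1.03 ± 0.29 (SE; limma adjusted p = 0.167), in the direction of Ccr2. Ccr1, a receptor for Ccl3 and Ccl5, was at 5.25, 5.11, 4.31 and 4.43 in IIKO arrays and at 4.37, 4.09, 4.35 and 4.28 in WT arrays. Ccr1 signals lay below the lower quartile of gene means (6.04) in all 8 arrays, so the size of its difference, 0.50 ± 0.19 (SE; limma adjusted p = 0.236), rests on a dim probe set. In the same run, Xcr1 differed by -0.11 ± 0.09 and Ccr1l1 by -0.15 ± 0.10 (SE; limma adjusted p = 0.529 and 0.436). Signals of both were dim too, below 6.04 in all 8 arrays. In neither were IIKO arrays 1 and 2 the 2 highest, and for Xcr1 IIKO array 2 was the lowest of all 8. For Ccr2, Cxcr6, Ccr1 and Ccr3 alike, IIKO arrays 1 and 2 were the highest of all 8 arrays, as in 5.21% of all genes tested (1038 of 19937). These arrays were also the 2 highest for 6 of the 20 transcription factors measured, the largest share of any list here. Stat4 on chromosome 1 and Hif1a on chromosome 12 were among those 6. The count was 6 of 37 signalling genes, 2 of 14 ligands and 2 of 12 Treg markers. It was 1 of 12 NK and CD8 T cell, 1 of 10 conventional CD4, 0 of 19 myeloid and 0 of 11 B cell markers. The cause of this pattern was not tested. The same 2 arrays were highest for Ccrl2, listed with the other chemokine receptors and elsewhere on chromosome 9, singled out after its values were seen (0.18 ± 0.18, SE; limma adjusted p = 0.61). The probe sets were not checked for shared sequence between these related genes.

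**Figure D3:**
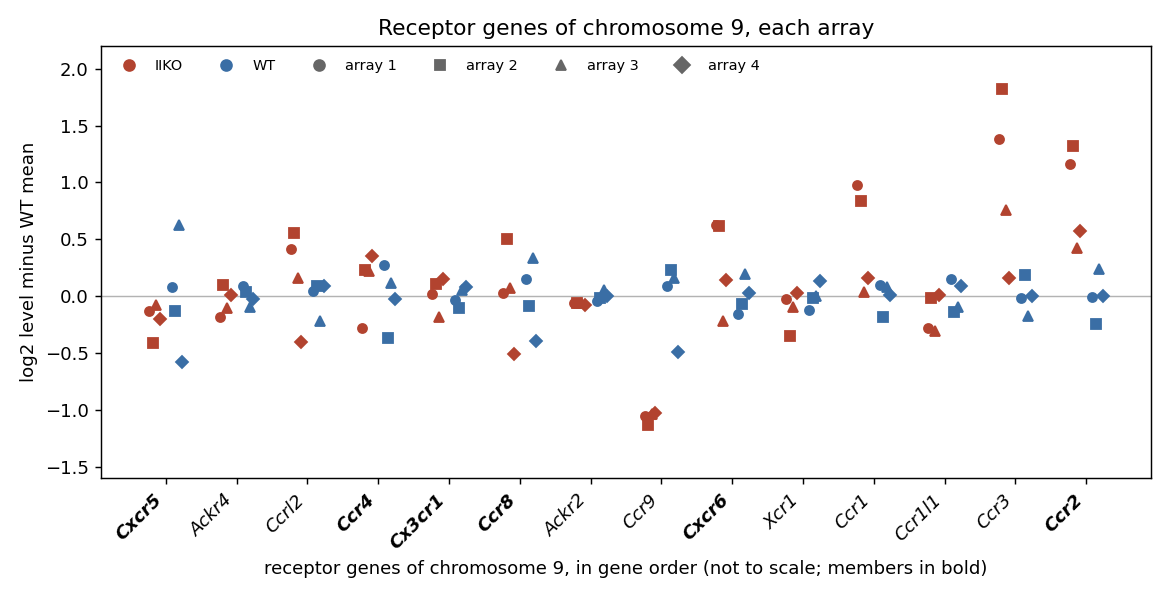
Log2 level minus the WT mean (vertical axis) for the 14 chemokine receptor genes of chromosome 9 in gene order (horizontal axis, not to scale), IIKO arrays in red left of WT arrays in blue, with a marker shape for each array number. IIKO arrays 1 and 2 are the 2 highest for Cxcr6, Ccr1, Ccr3 and Ccr2, but not for Xcr1 and Ccr1l1, which lie between Cxcr6 and Ccr3. Ccr9 is lower in all 4 IIKO arrays.

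Ccr9, the gut and thymus homing receptor 2 places from Cxcr6, went the other way. It was at 7.37, 7.29, 7.39 and 7.40 in IIKO arrays, against 8.52, 8.66, 8.59 and 7.94 in WT arrays, and fell by 1.06 (log2; limma adjusted p = 0.011). Of the 15 other chemokine receptors measured, Ccr9 fell and 14 did not pass, and 5 differences were positive and 10 negative with a median of -0.06. At an unadjusted limma p under 0.05 there were 3 of the 15, with Ccr3 and Ccr1 above and Ccr9 below WT, against 17.3% of all genes (5.27% above and 12% below WT). Ccr7, the lymph node homing receptor of naive cells, was at 10.24 ± 0.06 in IIKO and 10.17 ± 0.12 in WT (SD, n = 4 arrays each; limma adjusted p = 0.596).

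None of the 14 ligands of these receptors passed. At an unadjusted limma p under 0.05 there were 2, both above WT, against 17.3% of all genes (5.27% above WT). Ccl1, the ligand of Ccr8, was at 9.03, 8.11, 8.27 and 8.26 in IIKO arrays and at 7.63, 7.76, 7.69 and 8.01 in WT arrays. Every IIKO array was above every WT array, and IIKO array 1 was the highest. The difference of Ccl1 was 0.65 ± 0.18 (SE; limma adjusted p = 0.164). Cxcl10, a ligand of Cxcr3, was at 8.52, 9.37, 8.48 and 8.00 in IIKO arrays and at 7.80, 7.61, 7.78 and 8.18 in WT arrays, a difference of 0.75 ± 0.24 (SE; limma adjusted p = 0.195). The groups overlapped through IIKO array 4 and WT array 4. Cx3cl1, the ligand of Cx3cr1, differed by -0.12 ± 0.06 (SE; limma adjusted p = 0.324), and the median over the ligands was -0.01.

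None of the 37 measured genes of receptor signalling passed, and the median difference was 0.02. At an unadjusted limma p under 0.05 there were 4 (3 above and 1 below WT), against 17.3% of all genes (5.27% above and 12% below WT). The lowest adjusted p in this list was 0.195, for Arrb1, which encodes the arrestin that uncouples and internalizes receptors (-0.21 ± 0.07, SE). Grk5, a kinase that phosphorylates active receptors, differed by 0.25 ± 0.10 (SE) and Plcb2, a phospholipase that acts after the G protein, by 0.21 ± 0.09 (SE). Of 20 measured transcription factors none passed, and the median was 0.06. At an unadjusted limma p under 0.05 there were 8 (5 above and 3 below WT), against the same 17.3% of all genes (5.27% above and 12% below WT). Bhlhe40, a factor of activated T cells, was at 9.80, 9.34, 9.65 and 9.34 in IIKO arrays and at 8.96, 9.14, 8.52 and 8.92 in WT arrays. Its groups did not overlap (0.65 ± 0.14, SE; limma adjusted p = 0.116). Irf4, a factor of effector Tregs, differed by 0.26 ± 0.07 (SE) and Stat4, which signals for interleukin 12, by 0.36 ± 0.10 (SE; limma adjusted p = 0.16 for both).

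The genes with array profiles nearest to that of Ccr2, by the root mean square difference between the 8 deviations from each gene's own mean, were Tspan2 (0.17 log2), Mgat4a (0.18) and Ctsl (0.18). Tspan2 encodes a tetraspanin, Mgat4a an enzyme that branches N-glycans and Ctsl the lysosomal protease cathepsin L. In all 3, IIKO arrays 1 and 2 were the highest of the 8 arrays. Their differences between the groups were 0.58, 0.63 and 0.70 (limma adjusted p from 0.136 to 0.189). Nearest to Cxcr5, the receptor second in spread over the arrays, were Alg6 and Pgm1 (0.16 each) and Lcat (0.16), all highest in WT array 3. Alg6 encodes a glucosyltransferase of N-glycan assembly, Pgm1 a phosphoglucomutase and Lcat a cholesterol acyltransferase. This likeness is over 8 arrays and includes any difference between the groups. The shared highest arrays and shared direction largely follow from choosing genes by their profile, and are not separate results.

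**Figure D4:**
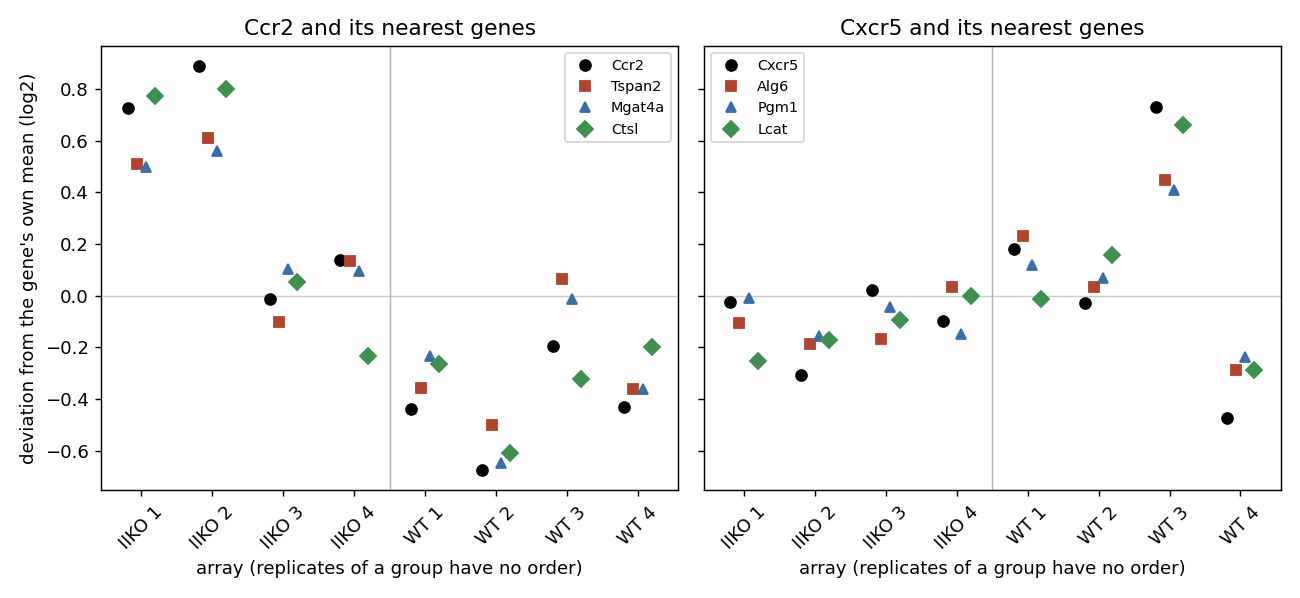
Deviation of each array from the gene's own mean (vertical axis, log2) in the 4 IIKO and 4 WT arrays (horizontal axis) for Ccr2 with its 3 nearest genes (left) and Cxcr5 with its 3 nearest genes (right). The Ccr2 group is highest in IIKO arrays 1 and 2, and the Cxcr5 group in WT array 3, which largely follows from choosing genes by profile.

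None of the 12 Treg and T cell markers measured passed the test between the groups (limma; 2 at an unadjusted p under 0.05, both above WT), and their mean level ran from 11.53 to 11.59 in IIKO and from 11.46 to 11.57 in WT. Foxp3 was at 10.68 ± 0.12 in IIKO and 10.63 ± 0.04 in WT (SD, n = 4 arrays each; limma adjusted p = 0.738). For 3 of the 12, Il2ra, Ctla4 and Ikzf2, every IIKO array was above every WT array, against 2.83% of all genes. Their differences were 0.17, 0.12 and 0.05 (limma adjusted p = 0.211, 0.272 and 0.634). Activated conventional CD4 T cells can carry several markers of this list too. Markers of cells that also carry these receptors were followed in the same way, and their part in the results was not tested. For each marker list, the share of all genes at an unadjusted limma p under 0.05 was 17.3% (5.27% above and 12% below WT). None of 19 myeloid and dendritic cell markers passed (2 at an unadjusted limma p under 0.05, both below WT), with mean levels of 6.39 to 6.82 in IIKO and 6.41 to 6.67 in WT. Those 2 were Siglech (-0.19 ± 0.06, SE; limma adjusted p = 0.199) and S100a8 (-0.33 ± 0.12, SE; limma adjusted p = 0.225). The highest myeloid mean was in IIKO array 3, where Tyrobp, a signalling adaptor, was at 9.70 and Cybb, an oxidase subunit, at 9.20. Ccr2 was lowest among IIKO arrays in that array, and a link between them was not tested. Over the groups, Tyrobp was at 8.78 ± 0.63 in IIKO and 8.23 ± 0.53 in WT. Cybb was at 8.44 ± 0.54 in IIKO and 8.41 ± 0.15 in WT (SD, n = 4 arrays each). None of 11 B cell markers passed (2 unadjusted, both below WT), with mean levels of 6.05 to 6.15 in IIKO and 6.08 to 6.27 in WT. For B cells, which carry Cxcr5 and Ccr6, Cd79b was at 7.49 ± 0.18 in IIKO and 7.68 ± 0.22 in WT, and Fcer2a at 5.07 ± 0.11 in IIKO and 5.33 ± 0.16 in WT (SD, n = 4 arrays each).

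None of 12 NK and CD8 T cell markers passed, with mean levels of 7.15 to 7.29 in IIKO and 7.15 to 7.42 in WT. At an unadjusted limma p under 0.05 there were 5, of which 2 above and 3 below WT, against 17.3% of all genes. Nkg7, a granule protein of cytotoxic cells, was at 10.93 ± 0.10 in IIKO and 11.28 ± 0.08 in WT (SD, n = 4 arrays each), with every IIKO array below every WT array (-0.35; limma adjusted p = 0.0847). Klrk1 went the other way, at 5.47 ± 0.33 in IIKO and 5.02 ± 0.12 in WT (SD, n = 4 arrays each). Its IIKO arrays were all above its WT arrays (0.45; limma adjusted p = 0.193), with signals below the lower quartile of gene means (6.04). Of the 12, 1 lay wholly above and 3 wholly below WT, against 2.83% and 7.69% of all genes. Gzmb, the cytotoxic protease granzyme B that activated Tregs also make, ran from 11.75 to 12.20 in IIKO and from 11.72 to 12.00 in WT. Activated conventional CD4 T cells can carry CD25 and several of the 8 receptors. None of their 10 markers passed (4 unadjusted, of which 3 above and 1 below WT), but 8 differences were positive with a median of 0.25, and the mean level ran from 7.59 to 7.93 in IIKO and from 7.35 to 7.61 in WT. Il21, a cytokine of follicular helper cells, was at 7.05, 6.25, 6.60 and 6.52 in IIKO arrays and at 5.53, 5.95, 5.72 and 5.75 in WT arrays (limma adjusted p = 0.0585). Il2 differed by 0.44 ± 0.11 (SE; limma adjusted p = 0.157). Il7r, the interleukin 7 receptor, which is usually low on Tregs and is in the list of conventional CD4 cells, ran from 11.70 to 12.11 in IIKO and from 11.37 to 11.98 in WT. No marker is at 0 on this scale, which has a background level that was not examined here.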

How the data were processed

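Samples were grouped by title into 4 IIKO and 4 WT arrays of sorted CD4+ TCRβ+ CD25+ cells. The authors deposited log2 values per probe set, which the submitters' processing notes tie to affy and RMA, a method that brings arrays to common quantiles. Array medians ran from 6.96 to 7.03. Single probes were not used here.

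Of 34760 probe sets, 21640 had 1 symbol in the platform annotation and were kept, the brightest per gene (19937 genes), with no filter on dim genes. RefSeq (GRCm38.p6) gave chromosomes, gene order and promoter sequences. Differences (IIKO minus WT, two-sided) came from limma 3.58.1 under R 4.3.3, fitted on every gene, with Benjamini-Hochberg adjustment. On simulated data for the 19937 genes it found 87.9% of changes of 0.5 log2 and 99.3% of changes of 1 log2, with 4.82% false calls. The simulated noise was independent between genes, with spreads shuffled among them, so these rates check the code. They do not give the power for any receptor: in the real data Ccr2, with a difference of 0.87, did not pass. The labels name biological replicates without saying that mice were separate, so p-values cover the spread between samples. No 2 arrays were copies (smallest SD of a difference 0.185).

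The receptors and lists were chosen with earlier results of these data known, and 8 of 166 listed genes were not analysed here. Genes were named by rule: the 8 receptors, Ccr7, Ccr9, factors tied to a receptor, the 3 of each related list with the smallest p, up to 2 bright and 2 low-p genes of each marker list, and the 3 nearest in profile to the 2 most variable receptors. Cd3g, Cd2, Ly6d and Tnf were also named by the rule, and their values are not printed. Foxp3, Ikzf2, Xcr1 and Ccr1l1 were added outside the rule, with their values seen. Alternatives were not followed gene by gene for these, or for Il2ra, Ctla4, Siglech, S100a8 and Klrk1. Alternatives were a 0.01 threshold, a replicate block, renewed quantile normalization, median centring, brighter genes alone, trend with robust variance, array weights, averaged probe sets and leaving out each array. Plots used matplotlib 3.10.9.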

Additional observations from a re-analysis of the deposited data

Results flagged for a closer look

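A single array stood apart from the other 3 of its group, by Dixon's ratio of the gap to the range at its 95% critical value, in 5 of 102 groups tested over the 51 genes named by rule. Chance flags about 1 in 20 groups. Among the 8 receptors this was 1 of 16 groups: Cxcr3 in IIKO array 3 was at 11.07, with the other IIKO arrays between 11.28 and 11.31. Arrb1 in WT array 2 was at 7.52, with the other WT arrays between 7.73 and 7.77, and Grk5 in WT array 2 was at 6.61, with the others between 6.80 and 6.83. Among B cell markers, Cd79b in IIKO array 1 was at 7.22 (others 7.56 to 7.60) and Ebf1 in IIKO array 1 at 5.15 (others 5.32 to 5.33).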

How the results depend on the processing

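The count of receptors past the threshold was 0 of 8 under every alternative run (limma). At an unadjusted p under 0.05 it was 2, and 1 with the replicate number as a block or without IIKO array 1, WT array 1 or WT array 3, and 3 without WT array 4. Ccr2 ran from 0.72 to 1.02 under the 15 alternatives, with limma adjusted p from 0.0788 to 0.281. As its groups did not overlap, leaving out 1 array could not turn its sign. The replicate block, brighter genes alone and trend with robust variance change a gene's p-value and not its difference. Ccr8 turned to -0.021 after a further quantile normalization, and ran from -0.13 to 0.20 with single arrays left out. Cx3cr1 ran from -0.017 to 0.094, Cxcr5 from -0.40 to 0.0042, Tbx21 from -0.091 to 0.0027 and Cybb from -0.23 to 0.19 with single arrays left out. Tbx21 turned to 0.012 with arrays centred on their medians, and Cybb to -0.0065 after the further quantile normalization. At a threshold of 0.01, 0 of the other chemokine receptors passed (Ccr9 at 0.011) and 21 of all genes. Nkg7, an NK and CD8 T cell marker, passed with trend and robust variance (1 of 12, adjusted p = 0.049). Il21 passed after the further quantile normalization, with arrays centred on their medians, and without IIKO array 2 (1 of 10 each, adjusted p = 0.0380 to 0.0465), so that the count of its list ran from 0 to 1 with single arrays left out. Of all genes, 57 passed, and 32 to 50 with single arrays left out. With the replicate number as a block, 31 passed, and 0 of the 8 receptors. The labels do not say that the replicate number pairs samples. The deviations of same-numbered arrays correlated at 0.045, -0.015, -0.068 and 0.22. Differently numbered arrays were not compared, so these values do not settle the pairing. The cause of these changes was not tested. With 4 arrays per group the precision is limited: the interval of Cxcr5, for example, ran from -0.66 to 0.25.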
